A study of Mus musculus with 8 samples.

Results

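A set of 10 macrophage genes was described: the endocytic receptors Mrc1, Msr1 and Cd36, the secreted products Igf1, Pla2g7, Fstl1 and Wfdc17, and Gpnmb, Mpeg1 and Ahnak, which encode membrane or intracellular proteins. They were chosen as macrophage receptors or secreted products that differed between the EPZ4777-treated arms of the study, and each was read from probe sets annotated to that symbol alone. All 10 were found among 18193 genes, on 23 of 45037 probe sets, and where a gene had several, the one of highest mean log2 intensity represents it. The set is named macrophage genes induced with 6 days of EPZ4777, and that name also draws on control arrays without drug. The rule that chose the genes compares the 4 arrays with drug, so differences with those arrays are given below as description, without p-values.

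The samples were mouse leukemic cells that carry MLL-AF9, an oncogenic fusion protein found in acute leukemia, and their total RNA was read on 8 Affymetrix arrays. Every culture also carried a short hairpin RNA and grew in 15% serum with the cytokines SCF (20 ng/ml), IL-3 and IL-6 (10 ng/ml of either). The hairpin targeted luciferase as a control (shLUC) or the deacetylase gene Sirt1 (shSirt1). There were 4 groups of 2 arrays: both hairpins in DMSO, shLUC after 6 days in 3 µM EPZ4777, and shSirt1 after 21 days at the same dose. EPZ4777 inhibits DOT1L, a methyltransferase of histone H3. Each title holds a code that joins 1 DMSO and 1 EPZ4777 array, and what it stands for is not given. The shLUC codes are A4 and D11, those of shSirt1 are A1 and A5. The labels give no time for DMSO, and hairpin, codes and days in drug differ together between the arms, so these cannot be told apart. The labels do not say whether arrays of a group are separate cultures, and p-values therefore cover the spread among these samples alone, and that spread may be technical.

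Sirt1 was measured first, as a check of the labels. Relative to the mean of shLUC cells, its intensity on the A1 arrays was 56.5% without and 57.3% with drug, but on the A5 arrays it was 102% and 105%. Cells with that hairpin are therefore called cells labelled shSirt1, and a direction between hairpins is one between labels. The median log2 intensity of the 8 arrays lay between 5.21 and 5.27, and their lower quartile between 3.75 and 3.84, below which a gene is close to the floor of the method. Having 2 arrays in a group limits the precision of each value. Dot1l, which encodes the target of the drug, was between 7.59 and 7.86 on all arrays.

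Macrophages take up particles and modified lipoproteins through endocytic and scavenger receptors, digest them in lysosomes, and secrete growth factors, lipases and antimicrobial proteins. Mrc1 is the mannose receptor, Msr1 the class A scavenger receptor and Cd36 a class B scavenger receptor that also carries fatty acids. Many of these genes come up as monocytic precursors mature, and several, among them Igf1 and Fstl1, are also made by mesenchymal cells.

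The promoters of 9 of the 10 genes were matched by symbol in RefSeq (GRCm38.p6), each as 250 bases before and 50 after a transcription start, and Msr1 was not among them. The 5 that held any of 7 searched motifs are printed here so that the letters can be set beside the values. Capitals mark GAGGAAGT (the PU.1 core), TGANTCA (a loose AP-1 pattern with any base in the middle), AGGTCA (a nuclear receptor half-site) or TATAAA (the TATA box). Both strands were searched, and no 2 of these matches overlapped.
Cd36 (chr5:17835847-17836146, minus strand): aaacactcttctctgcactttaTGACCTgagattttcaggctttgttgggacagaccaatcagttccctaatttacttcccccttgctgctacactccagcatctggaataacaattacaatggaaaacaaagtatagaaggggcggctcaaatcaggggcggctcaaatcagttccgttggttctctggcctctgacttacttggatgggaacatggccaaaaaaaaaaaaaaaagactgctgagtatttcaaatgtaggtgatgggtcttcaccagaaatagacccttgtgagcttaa
Igf1 (chr10:87860861-87861160, plus strand): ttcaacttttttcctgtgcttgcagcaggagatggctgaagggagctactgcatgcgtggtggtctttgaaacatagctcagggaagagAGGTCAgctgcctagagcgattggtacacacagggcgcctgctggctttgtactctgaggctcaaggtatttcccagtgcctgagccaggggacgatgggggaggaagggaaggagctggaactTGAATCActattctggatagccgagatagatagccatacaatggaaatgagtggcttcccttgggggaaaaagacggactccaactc
Fstl1 (chr16:37776805-37777104, plus strand): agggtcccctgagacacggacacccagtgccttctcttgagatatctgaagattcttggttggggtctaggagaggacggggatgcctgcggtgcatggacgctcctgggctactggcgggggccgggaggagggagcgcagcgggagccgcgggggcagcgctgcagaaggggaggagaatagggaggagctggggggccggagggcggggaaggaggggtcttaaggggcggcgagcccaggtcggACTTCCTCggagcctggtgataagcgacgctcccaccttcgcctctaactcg
Wfdc17 (chr11:83703806-83704105, plus strand): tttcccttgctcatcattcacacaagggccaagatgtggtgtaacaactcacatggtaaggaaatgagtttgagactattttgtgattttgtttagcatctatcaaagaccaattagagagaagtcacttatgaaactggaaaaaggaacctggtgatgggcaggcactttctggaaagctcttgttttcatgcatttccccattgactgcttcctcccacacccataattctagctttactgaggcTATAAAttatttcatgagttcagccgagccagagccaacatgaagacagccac
Gpnmb (chr6:49036268-49036567, plus strand): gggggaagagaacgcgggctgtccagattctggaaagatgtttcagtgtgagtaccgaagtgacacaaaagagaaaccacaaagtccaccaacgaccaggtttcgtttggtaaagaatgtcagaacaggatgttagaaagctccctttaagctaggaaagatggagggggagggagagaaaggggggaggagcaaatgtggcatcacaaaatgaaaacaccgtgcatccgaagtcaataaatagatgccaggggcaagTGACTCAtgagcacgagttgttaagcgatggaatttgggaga

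In the Fstl1 promoter the PU.1 core lies on the minus strand across the start, from base -2 to base 6, and 3.20% of all 32851 promoters hold it. The loose AP-1 pattern was met by TGAATCA at -37 to -31 in Igf1 and by TGACTCA at 9 to 15 in Gpnmb, and 7.81% of promoters meet it. The usual AP-1 site has C or G in the middle, so only the Gpnmb match holds its letters. Igf1 also holds the half-site AGGTCA at -161 to -156, as Cd36 does on the minus strand at -228 to -223, against 16.3% of promoters. Wfdc17 holds TATAAA at -3 to 3, against 13.6%. The C/EBP letters TTGCNNAA, the E-box CACGTG and the MAF half-site TGCTGAC, held by 10.8%, 7.15% and 4.67% of promoters, were in none of the 9 windows. Mrc1, Pla2g7, Mpeg1 and Ahnak held no match to any of the 7. The windows of Fstl1 and Ahnak had 66.7% and 67.3% G and C with 21 and 22 CpG sites, against a median of 52.7% and 7 over all promoters, and that of Wfdc17 had 42.0% and 1. The Igf1 window lies inside the annotated gene (chr10:87858265-87937047), as do those of Cd36 (chr5:17781690-17888959) and Pla2g7 (chr17:43567994-43612202), so none of these windows is at the first base of the annotated gene. A match is a description of letters, not a bound site.

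**Figure D1:**
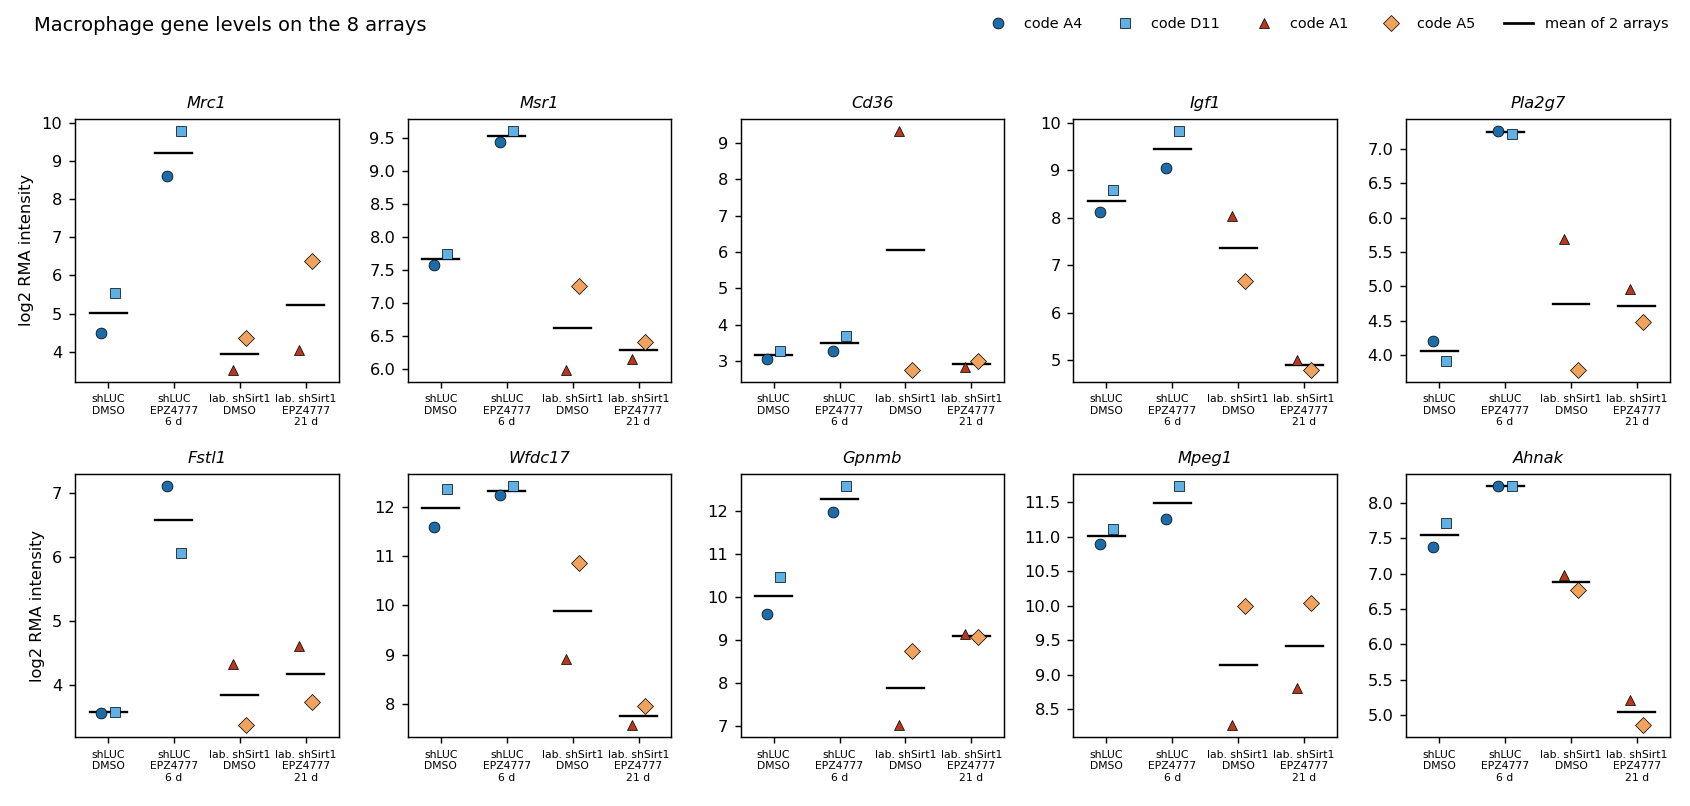
Log2 RMA intensity (y axis, a scale of its own in each panel) of the 10 genes on the 8 arrays by group (x axis), with 1 point per array shaped by code and a line at the mean of 2 arrays. For Mrc1, Msr1, Pla2g7 and Fstl1 both shLUC arrays with EPZ4777 stand above the other 6, and for Cd36 the A1 array in DMSO stands alone at 9.34.

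Among the receptors, Mrc1 had the largest difference after 6 days. Its log2 intensity was 4.48 (A4) and 5.55 (D11) with shLUC in DMSO and 8.62 and 9.80 after 6 days in EPZ4777. In cells labelled shSirt1 it was 3.53 (A1) and 4.35 (A5) in DMSO and 4.04 and 6.39 after 21 days in EPZ4777. Both shLUC arrays with drug stood above the other 6, and among the rest only A5 with drug was above 6. The log2 difference, EPZ4777 minus DMSO, was 4.19 ± 0.80 in shLUC cells, an 18.3-fold higher level. Here and throughout, ± is the standard error from limma, with n = 2 arrays per group. That error pools the spread of all 4 groups, so it is not the spread of the 2 compared groups alone. The difference was 1.28 ± 0.80 in cells labelled shSirt1, made of 0.51 within A1 and 2.04 within A5. On A1 in DMSO Mrc1 was under the lower quartile, so its difference within A1 starts from the floor.

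Msr1 was well above the floor on all arrays. It measured 7.58 (A4) and 7.74 (D11) with shLUC in DMSO and 9.43 and 9.61 with EPZ4777, against 5.99 (A1) and 7.26 (A5) in DMSO and 6.16 and 6.41 with EPZ4777 in cells labelled shSirt1. The shLUC groups did not overlap with each other or with either group labelled shSirt1. The difference with drug was 1.86 ± 0.36 with shLUC and -0.34 ± 0.36 in cells labelled shSirt1, where A1 gave 0.16 and A5 -0.85.

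Cd36 went against the name of the set. It was under the lower quartile of its array on 7 of 8 arrays. These were the shLUC arrays in DMSO (3.06 in A4 and 3.27 in D11) and in EPZ4777, with 3.27 and 3.70, and the arrays labelled shSirt1 other than A1 in DMSO, with 2.76 on A5 in DMSO, and 2.83 (A1) and 3.00 (A5) with EPZ4777. On the A1 array in DMSO it was 9.34, so that within A1 the difference with drug was -6.51, against 0.24 within A5. Its positive difference of 0.33 in shLUC cells therefore joins values at the floor, and no fold is given. All 3 probe sets of Cd36 showed this single array, at 9.02, 9.34 and 6.61 against 3.75 or less on the others.

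The A1 array in DMSO also stood apart in other genes of lipid uptake and in stroma genes. On it 55 genes lay at least 2 log2 above all 7 other arrays, against 0 to 2 genes for each other array. Of the 15 measured genes on a list of macrophage lipid handling, 3 did so: Fabp4, a fatty acid-binding protein (13.2 against at most 8.36), Fabp3, a relative of it (9.55 against at most 5.94), and Apoe, an apolipoprotein (7.71 against at most 5.44). Lpl, the lipoprotein lipase, was at 12.3 there and between 9.14 and 11.9 elsewhere. Col3a1, a fibrillar collagen chain, was at 6.92 against at most 3.13, and Dcn, the matrix proteoglycan decorin, at 7.27 against at most 4.79. The summed intensity of 11 stroma markers was 1244 on A1 and 545.7 on A5 in DMSO, against 583 to 602 in shLUC in DMSO and 824 to 946 with drug. With drug its largest term was Acta2, at 8.99 to 9.19. Also highest on A1 in DMSO were Col1a2 (6.74 against at most 5.39), Postn (6.34, 4.59), Lum (5.19, 4.42), Thy1 (8.58, 7.84) and Bgn (5.23, 5.06). Acta2, Pdgfrb, Pdgfra and Col1a1 were not. Col1a1, another collagen chain, was at 3.91 to 4.47 on all arrays. The part of stroma cells in the Cd36 value was not tested.

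**Figure D2:**
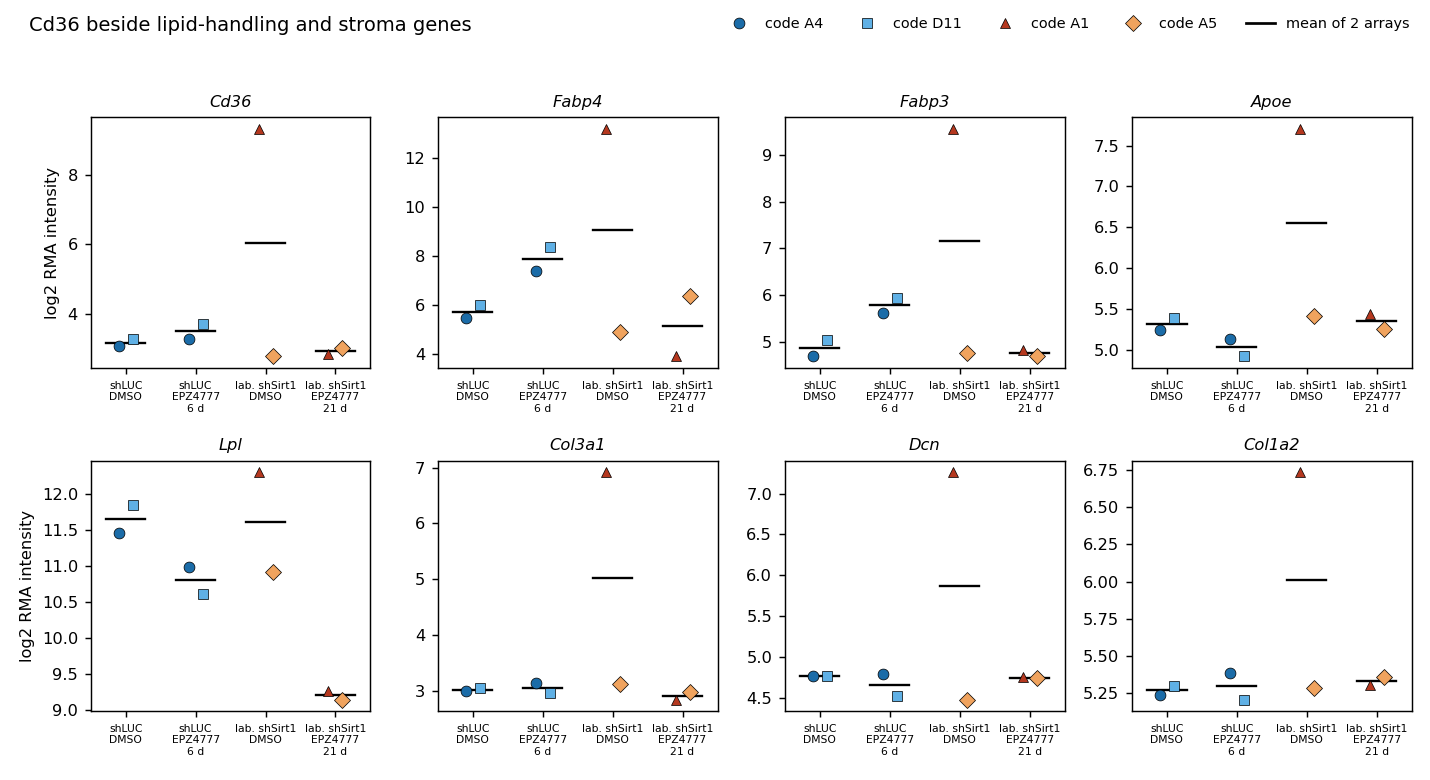
Log2 RMA intensity (y axis, a scale of its own in each panel) of Cd36, 4 lipid-handling genes and 3 stroma genes on the 8 arrays by group (x axis), with 1 point per array shaped by code and a line at the mean of 2 arrays. The A1 array in DMSO is the highest in each panel, for example 13.2 for Fabp4 and 6.92 for Col3a1.

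Among the secreted products, Igf1, the insulin-like growth factor, differed in opposite directions in the 2 arms. Its level in shLUC cells was 8.11 (A4) and 8.59 (D11) in DMSO and 9.05 and 9.83 after EPZ4777. In cells labelled shSirt1 it was 8.05 (A1) and 6.67 (A5) in DMSO and 5.01 and 4.81 after EPZ4777. The 2 drug-treated arrays labelled shSirt1 were the lowest of the 8, and A1 in DMSO lay beside the shLUC controls. The difference was 1.09 ± 0.45 with shLUC and -2.45 ± 0.45 in cells labelled shSirt1, and it was negative in both of their codes (-3.04 in A1 and -1.86 in A5).

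Pla2g7, the secreted acetylhydrolase of platelet-activating factor, and Fstl1, a secreted glycoprotein of the follistatin and SPARC family, had low values outside shLUC cells with drug. Pla2g7 was 4.20 (A4) and 3.92 (D11) with shLUC in DMSO and 7.27 and 7.23 with EPZ4777, against 5.68 (A1) and 3.78 (A5) in DMSO and 4.96 and 4.48 with EPZ4777 in cells labelled shSirt1. Fstl1 was 3.56 (A4) and 3.58 (D11) with shLUC in DMSO and 7.11 and 6.06 with EPZ4777, against 4.32 (A1) and 3.37 (A5) in DMSO and 4.60 and 3.73 with EPZ4777. For both genes A1 was above A5 with and without drug. The shLUC difference was 3.19 ± 0.54 for Pla2g7, a 9.12-fold higher level, and 3.02 ± 0.45 for Fstl1. In cells labelled shSirt1 the differences were -0.015 ± 0.54 and 0.32 ± 0.45. Fstl1 was under the lower quartile on 4 arrays, both shLUC arrays in DMSO among them, so no fold is given for it. Pla2g7 was under it on 0 arrays, but on D11 and A5 in DMSO (3.92 and 3.78) it was close, so its fold is a rough value.

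Wfdc17, a secreted protein with a whey acidic protein domain made by activated macrophages, was already abundant in shLUC cells without drug. Its level was 11.6 (A4) and 12.4 (D11) in DMSO and 12.2 and 12.4 with EPZ4777, and these groups overlapped, with a difference of 0.35 ± 0.58. In cells labelled shSirt1 it was 8.92 (A1) and 10.9 (A5) in DMSO and 7.58 and 7.96 after EPZ4777, a difference of -2.11 ± 0.58. All 4 arrays labelled shSirt1 lay below all 4 shLUC arrays. What set Wfdc17 apart between the arms was thus its lower level in cells labelled shSirt1 rather than a higher level after 6 days.

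Gpnmb, a transmembrane glycoprotein of lysosomes and the cell surface, was the gene with a positive difference of more than 1 log2 in both arms together with Mrc1. Without drug it was 9.60 (A4) and 10.5 (D11) with shLUC and with EPZ4777 12.0 and 12.6, against 7.03 (A1) and 8.76 (A5) in DMSO and 9.14 and 9.06 with EPZ4777 in cells labelled shSirt1. The groups with and without drug did not overlap in either arm. The difference was 2.24 ± 0.55 with shLUC and 1.21 ± 0.55 in cells labelled shSirt1, the latter made of 2.11 in A1 and 0.31 in A5.

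Mpeg1, which encodes perforin-2, a pore-forming protein of phagocytes, had small differences with drug in both arms. The shLUC arrays gave 10.9 (A4) and 11.1 (D11) in DMSO and 11.3 and 11.7 with EPZ4777, against 8.27 (A1) and 10.0 (A5) in DMSO and 8.81 and 10.0 with EPZ4777 in cells labelled shSirt1. All 4 shLUC arrays lay above all 4 others. The gene was chosen for a difference between labels with drug, so that gap is partly built in. A1 and A5 also lay far apart, at 8.27 and 10.0 in DMSO. The differences with drug were 0.49 ± 0.59 and 0.29 ± 0.59.

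Ahnak, a very large scaffold protein under the plasma membrane and found in many cell types, had the closest replicates. In shLUC cells its level was 7.37 (A4) and 7.72 (D11) in DMSO and 8.24 and 8.23 with EPZ4777, against 6.99 (A1) and 6.77 (A5) in DMSO and 5.22 and 4.86 with EPZ4777 in cells labelled shSirt1. The 4 groups did not overlap. The difference was 0.69 ± 0.17 with shLUC and -1.84 ± 0.17 in cells labelled shSirt1, so the lowest values of the gene were those after 21 days.

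**Figure D3:**
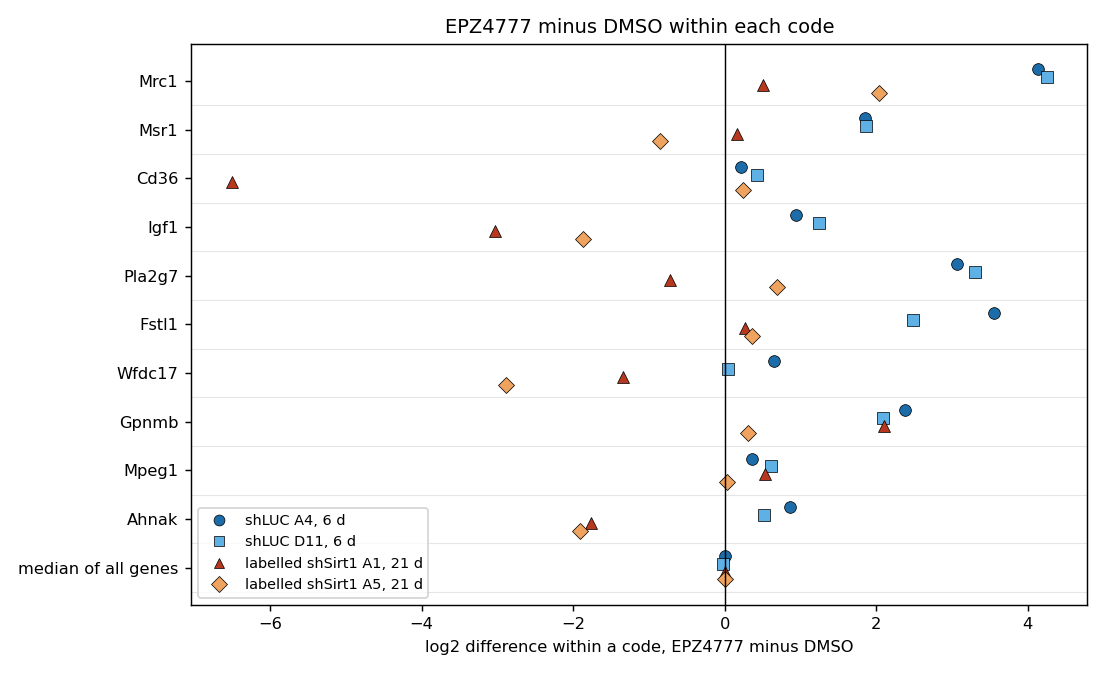
Log2 difference between the EPZ4777 and the DMSO array of a code (x axis) for the 10 genes and for the median of all genes (y axis), with 1 point per code. All 20 points of the 2 shLUC codes are above 0, while Igf1, Wfdc17 and Ahnak are below 0 in both codes labelled shSirt1, down to -3.04.

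Over the set, all 10 genes had a positive difference after 6 days in shLUC cells, with a median of 1.47, against -0.0025 over all genes. The median within codes was 1.40 in A4 and 1.55 in D11. A gene was called at a limma p under 0.05 after Benjamini-Hochberg adjustment over all 18193 genes. By that rule 4 of the 10 were called higher in this comparison, Mrc1, Msr1, Pla2g7 and Fstl1, while 1.62% of all genes were called higher and 2.36% lower, 3.98% together. With the code as a replicate block 6 were called, Gpnmb and Ahnak in addition, against 7.23% of all genes in either direction. Without either shLUC array in DMSO or D11 in EPZ4777 none was called, and without A4 in EPZ4777 1 was. Between shLUC groups 9 of the 10 genes did not overlap, all but Wfdc17, as was so for 24.2% of all genes in that direction and 28.2% in the other. Nothing is read from these counts, because the genes were picked for differences with these arrays.

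In cells labelled shSirt1 the 10 genes did not move together. After 21 days 4 differences were positive and 6 negative, from -3.14 (Cd36) to 1.28 (Mrc1), with a median of -0.18 against 0.011 over all genes. Within codes the median was -0.28 in A1 and 0.14 in A5. Ahnak was called lower, 1 of 10, where 0.181% of all genes were called lower and 0.214% higher, 0.396% together. Groups did not overlap for Gpnmb (higher, as for 26.0% of all genes) and for Wfdc17, Igf1 and Ahnak (lower, 23.0%). The call of Ahnak was lost when A5 with drug, A1 in DMSO or either shLUC array in DMSO was left out, and 2 genes, Igf1 and Ahnak, were called with the code as a replicate block, against 2.22% of all genes. The contrast between the arms with drug is the one on which the genes were chosen, so its values and counts only describe that choice and nothing is read from them. In it 9 of the 10 genes were lower in cells labelled shSirt1 than in shLUC cells with no overlap. Cd36 ranked the same way, but all 4 of its values lie under the lower quartile and its order there has no meaning. Of all genes 18.2% were lower and 21.0% higher with no overlap. That difference, labelled shSirt1 minus shLUC, had a median of -3.18, and 4 genes were called lower (Wfdc17, Msr1, Igf1 and Ahnak) beside 0.242% of all genes called lower and 0.0660% called higher, 0.308% together. It was -4.55 ± 0.58 for Wfdc17 and -4.54 ± 0.45 for Igf1, which is 23.4-fold and 23.2-fold lower, and -0.57 ± 1.76 for Cd36. Leaving out any of the 4 arrays with drug, or a shLUC array in DMSO, brought the number called to 1 or 0.

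The DMSO arrays gave the one comparison between labels that the rule for the genes does not name. It shares its shLUC arrays with the 6-day comparison in the name of the set, and its codes with the drug-treated arrays. It is therefore not independent of the choice. Without drug 7 of the 10 genes were lower in cells labelled shSirt1 with no overlap (Wfdc17, Mpeg1, Gpnmb, Msr1, Igf1, Ahnak and Mrc1), as was so for 22.2% of all genes (17.0% were higher). None of the 10 passed the limma test, and of all genes 0% did. At an unadjusted p under 0.05 stood 5 of the 10 and 985 genes in all, 5.41%. The median difference was -1.01, against -0.013 over all genes.

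The most negative of these differences were those of Gpnmb (-2.14 ± 0.55, 95% interval -3.44 to -0.84, limma adjusted p = 0.882) and Wfdc17 (-2.09 ± 0.58, -3.45 to -0.72, same adjusted p). Mpeg1 differed by -1.87 ± 0.59 (-3.27 to -0.48), Msr1 by -1.03 ± 0.36 (-1.89 to -0.18) and Ahnak by -0.67 ± 0.17 (-1.07 to -0.26), again with a limma adjusted p of 0.882. Mrc1 (-1.08 ± 0.80) and Igf1 (-0.99 ± 0.45) had intervals that held 0. Pla2g7 (0.67 ± 0.54), Fstl1 (0.28 ± 0.45) and Cd36 (2.89 ± 1.76) had positive differences, in each case with A1 above and A5 below both shLUC arrays. A1 and A5 were far apart for several genes in DMSO, with 8.92 and 10.9 for Wfdc17 and 7.03 and 8.76 for Gpnmb. Without the A5 array in DMSO, 5 of the 10 genes were called, Msr1, Wfdc17 and Gpnmb lower and Cd36 and Pla2g7 higher, beside 0.852% of all genes, and that result rests on the single A1 array. Without A1 none was called.

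**Figure D4:**
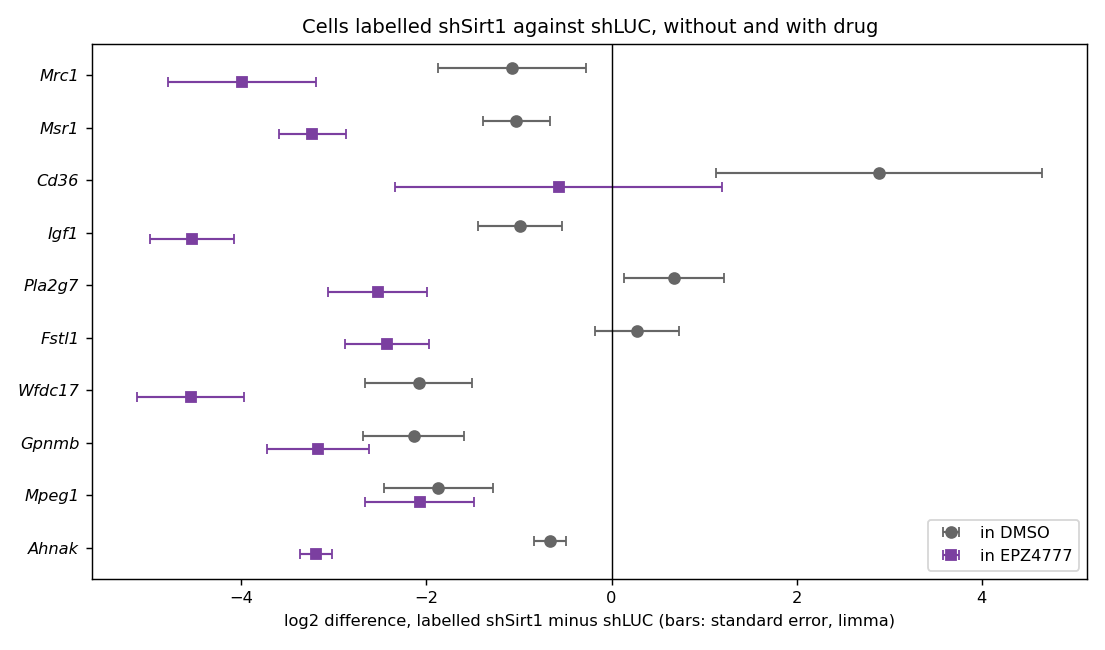
Log2 difference, cells labelled shSirt1 minus shLUC (x axis), for the 10 genes (y axis) in DMSO and in EPZ4777. Bars are the standard error from limma (n = 2 arrays per group, spread pooled over all 4 groups). Mpeg1 lies at -1.87 in DMSO and -2.07 in EPZ4777, while Igf1 lies at -0.99 and -4.54.

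Set side by side, the genes differed in how much of the gap between labels was present without drug. They were chosen for a gap with drug, so a wider gap there than in DMSO is partly built in. The values are given as description, and nothing is read from them. For Mpeg1 the difference was -1.87 in DMSO and -2.07 in EPZ4777, and for Gpnmb it was -2.14 and -3.17. For Igf1 it was -0.99 and -4.54 and for Ahnak -0.67 and -3.20. For Pla2g7 and Fstl1 it was 0.67 and 0.28 in DMSO and -2.53 and -2.42 in EPZ4777. The change between the 2 conditions, which equals the difference of the drug effects, ranged from -0.20 ± 0.83 for Mpeg1 to -3.54 ± 0.64 for Igf1.

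Of the 10 genes 6 had 2 or more probe sets. The 4 of Igf1 gave 1.09 to 1.38 with shLUC and -2.47 to -1.57 in cells labelled shSirt1, and both of Fstl1 gave similar values (3.02 and 3.03, 0.32 and 0.27). Gpnmb gave 2.24 and 2.05 in shLUC cells and 1.21 and 0.83 in the others. The 4 probe sets of Msr1 gave 0.70 to 1.86 in shLUC cells, but in cells labelled shSirt1 the represented one had -0.34 and the other 3 had 0.09 to 0.35. For Ahnak the represented probe set gave 0.69 and -1.84, and the other 3 gave far smaller differences, -0.065 to 0.27 with shLUC and -0.24 to 0.074 in cells labelled shSirt1.

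**Figure D5:**
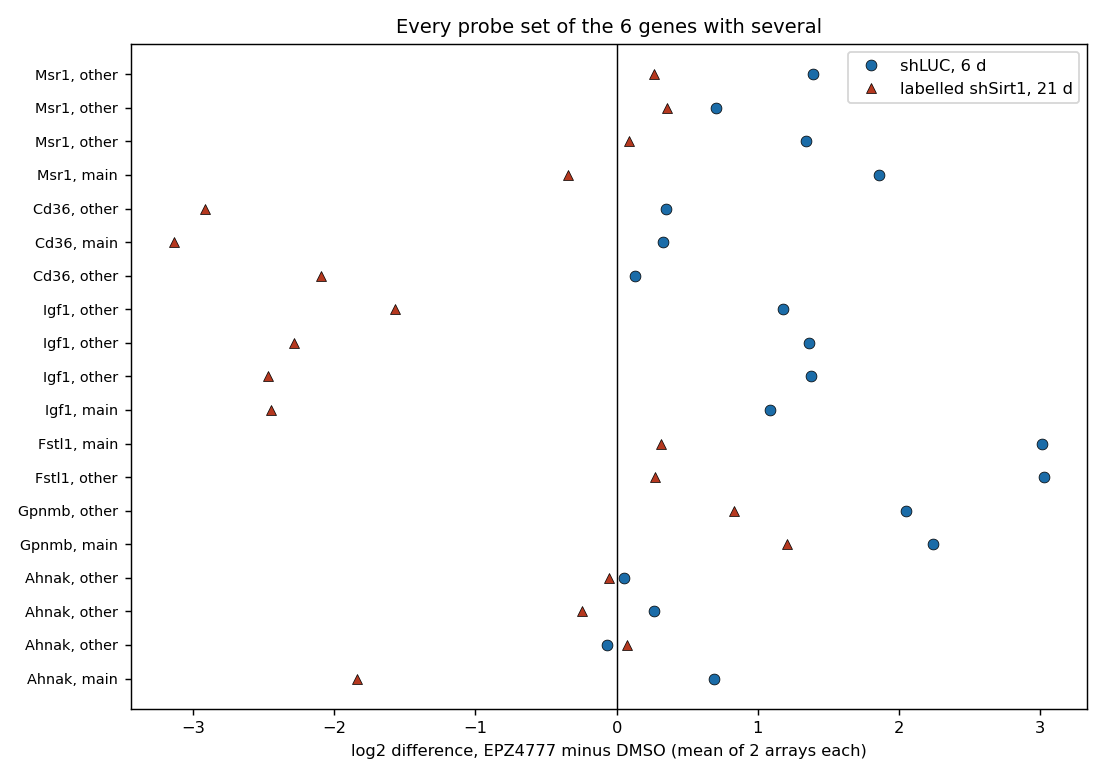
Log2 difference, EPZ4777 minus DMSO (x axis), of every probe set of the 6 genes with several (y axis; main marks the one that represents the gene), for shLUC and for cells labelled shSirt1. The 4 Igf1 probe sets keep their signs, whereas of the 4 Ahnak probe sets only the main one reaches -1.84.

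Genes of the same families and pathways were taken from lists chosen by knowledge of their function, but with earlier results of these data known. The calls and adjusted p-values of these lists, and of the markers below, therefore describe these arrays and are no independent test. Of 22 measured scavenger and endocytic receptors 1 passed in shLUC cells, Ly75, the receptor DEC-205 of the mannose receptor family, which rose by 1.88 ± 0.27 (limma adjusted p = 0.0301) and also by 2.29 ± 0.27 (limma adjusted p = 0.0399) in cells labelled shSirt1. The other 21 did not pass in either arm. When either shLUC array in DMSO was left out, no gene of all those tested passed for drug in either arm. Between labels in EPZ4777 none passed without D11 in EPZ4777. All calls given for lists and markers are thus lost on leaving out 1 array. Of 15 lipid-handling genes Abcg1, a cholesterol exporter, rose in shLUC cells (1.29 ± 0.16, limma adjusted p = 0.0250), and 0 of 15 passed in cells labelled shSirt1. Of 15 members of the IGF pathway Insr, the insulin receptor, rose in shLUC cells (0.94 ± 0.14, limma adjusted p = 0.0301) and none passed in the other arm. Of 13 genes of platelet-activating factor and phospholipases A2 none passed for drug in either arm, and Pla2g15, the lysosomal phospholipase A2, was lower in cells labelled shSirt1 than in shLUC cells in EPZ4777 (-0.86 ± 0.11, limma adjusted p = 0.0411).

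None of 11 genes of the follistatin and SPARC family and none of 6 other pore-forming proteins passed in any comparison. Of 14 genes with whey acidic protein domains Slpi, a secreted protease inhibitor, rose in shLUC cells (1.02 ± 0.20, limma adjusted p = 0.0454). Of 6 genes linked to Ahnak its relative Ahnak2 rose there (0.85 ± 0.12, limma adjusted p = 0.0301). Of 10 genes of the MITF family and its targets, to which Gpnmb belongs by common knowledge, 2 rose in shLUC cells, the proton pump subunit Atp6v0d2 (2.71 ± 0.50, limma adjusted p = 0.0402) and the protease cathepsin K, Ctsk (1.10 ± 0.17, limma adjusted p = 0.0311). Mitf and the other 7 did not pass. Of 15 macrophage transcription factors 2 rose in shLUC cells, Maf (2.97 ± 0.61) and Runx1 (1.15 ± 0.11), and Irf8 fell by 1.99 there and by 3.25 in cells labelled shSirt1. In DMSO none of these 10 lists had a gene past the test, but 0% of all genes passed there, so this says nothing about the lists.

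Of 17 measured macrophage markers that are not in the set, 15 had a positive difference in shLUC cells, with a median of 0.65, and 3 rose there, the complement chains C1qa, C1qb and C1qc (1.78 ± 0.25, 3.33 ± 0.28 and 1.68 ± 0.33). In cells labelled shSirt1 8 of 17 were positive, with a median of -0.12, and 0 passed, where 0.396% of all genes did. In EPZ4777 C1qb and C1qa were lower in cells labelled shSirt1 than in shLUC cells, by -3.77 ± 0.28 and -2.07 ± 0.25 (limma adjusted p = 0.0143 and 0.0400). The summed intensity of the 17 markers was 16587 to 19769 in shLUC in DMSO, 28584 to 36247 after 6 days, 8161 to 14133 in cells labelled shSirt1 in DMSO and 15455 to 24904 after 21 days. Between 76.8% and 86.7% of this sum came from Lyz2 and Lgals3, which other myeloid cells also express. Without them the sum of the other 15 was 3678 to 4595, 5333 to 6774, 1266 to 2908 and 2188 to 3311 in the same order. Vsig4, a receptor of resident macrophages, was under the lower quartile on all 8 arrays, and Csf1r, the receptor of the macrophage growth factor, was between 7.49 and 10.3. All 11 markers of neutrophils had positive differences with drug in both arms, with medians of 2.22 in shLUC cells, where Cd177, Lcn2 and Fcnb rose (3.95 ± 0.72, 3.07 ± 0.62 and 2.31 ± 0.45), and 2.89 in cells labelled shSirt1, where 0 passed. Their summed intensity was 26856 to 35016 in shLUC cells in DMSO and 60018 to 101379 with drug, and 11501 to 28786 and 61098 to 104132 in cells labelled shSirt1. S100a8 and S100a9, which other myeloid cells also express, were the largest terms of this sum on all 8 arrays. On A4 they were 13.8 and 12.9 in DMSO and 14.4 and 14.3 with drug. The part of neutrophil genes in the differences of the 10 genes was not tested. In these bulk samples fewer cells of a type and less RNA per cell cannot be told apart. Of 5 megakaryocyte markers Pf4 alone passed after 6 days, and it rose (2.71 ± 0.19, limma adjusted p = 0.00979). The other 4 did not pass, and the list had a median difference of 0.13 there. Of 11 stroma markers only Acta2 of smooth muscle passed for drug. Acta2 rose in both arms (0.79 ± 0.12 and 1.05 ± 0.12, limma adjusted p = 0.0314 and 0.0399). The stroma list had medians of 0.024 after 6 days and -0.55 after 21 days, so Acta2 does not stand for it. Of 11 dendritic cell markers 0 passed in any comparison, and their summed intensity was between 361 and 609.

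The 10 genes were compared as profiles over the 8 arrays, which share their groups, so the correlations are descriptions. The genes were also chosen on 4 of these arrays, those with drug, so likeness among them is partly built in. Each of 9 genes correlated with the mean of the others at r = 0.70 (Mpeg1) to 0.92 (Msr1), and Cd36 at -0.19. The closest pairs were Igf1 with Ahnak (r = 0.98) and Pla2g7 with Fstl1 (r = 0.95), while Pla2g7 and Wfdc17 had r = 0.26. Among 698 other genes with a range of at least 2 log2, the 10 most like the mean profile had r from 0.94 to 0.98. In order they were Cbr2, Lgmn (the lysosomal protease legumain), Ccl12, Pkdcc, Cd69, C1qb, Klk1b11, Lrp1 (an endocytic receptor), Hacd4 and Ccl7. The mean profile includes Cd36, and on A1 in DMSO its centred value was -0.39 with that gene and -1.04 without. Lgmn was 5.07 (A4) and 5.46 (D11) with shLUC in DMSO and 6.93 and 7.55 with EPZ4777, and between 3.90 and 5.09 in cells labelled shSirt1. Ccl12 and Ccl7, chemokines that attract monocytes, were highest on the same 2 arrays, at 6.33 and 7.41 and at 6.78 and 8.11, and no higher than 5.33 elsewhere.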

How the data were processed

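Total RNA of 8 samples was hybridised to 1 Affymetrix array each. The values the authors deposited are intensity values on a linear scale, as read from the values, and the submitters' processing notes name RMA. RMA corrects background, normalizes between arrays, summarises probes and shrinks low signals, so low values understate a change. Neither its version nor the chip definition is given in the sources used here. The log2 of each value was taken with no pseudocount. Of 45101 probe sets 64 controls were left out. Of the rest 34945 had 1 gene symbol in the platform annotation, 932 had several and 9160 were not listed there, and the first kind gave 18193 genes, each read from the probe set of highest mean. No detection filter was used.

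All genes were fitted with limma 3.58.1 in R 4.3.3 (lmFit, eBayes) on 4 group means over 8 arrays, with 4 residual degrees of freedom, and p-values are two-sided and Benjamini-Hochberg adjusted, with a threshold of 0.05. With 2 arrays a side, the smallest p of an exact permutation test is 0.333. The code shared in titles is the only sign of pairing. Deviations of a code correlated between DMSO and EPZ4777 at 0.293 (shLUC) and 0.378 (labelled shSirt1), and fits with it as a replicate block (2 residual degrees of freedom) stand beside the results they move. Other alternatives were the mean of probe sets, each probe set alone, dim genes removed, quantile or median scaling, other variance models, 4 arrays only, a threshold of 0.1, and each array left out. The members, gene lists and motifs were chosen with earlier results of these data known. Named beside the members are the called genes of each list, at most 3 per comparison, the 10 genes most like the mean profile with a log2 range of at least 2, and markers that stood on 1 array. Lpl, Csf1r, Vsig4, S100a8, S100a9 and the stroma markers other than Col3a1, Dcn and Acta2 were added as context after their values were seen.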

Additional observations from a re-analysis of the deposited data

Results flagged for a closer look

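Igf1, Wfdc17 and Ahnak had a positive difference with EPZ4777 in both shLUC codes and a negative one in both codes labelled shSirt1. The difference of the drug effects, labelled shSirt1 minus shLUC, was -3.54 for Igf1, -2.46 for Wfdc17 and -2.53 for Ahnak. Wfdc17 is the weakest case: its difference within D11 was 0.048, its shLUC groups overlapped, and without A4 in DMSO its shLUC difference was -0.040. The difference of effects was not tested, because the genes were chosen on the drug-treated arrays. The arms also differ in days of drug and in codes, which cannot be told apart from the hairpin. For Ahnak the other 3 of its 4 probe sets gave -0.065 to 0.27 with shLUC and -0.24 to 0.074 in cells labelled shSirt1. Those 3 lay below the median intensity on every array, so they may understate a change.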

How the results depend on the processing

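The number of members called in each comparison, between labels or for drug, moved with the arrays entered more than with the scaling. With 1 array left out it ranged from 0 to 4 for drug in shLUC cells (0 without either DMSO array or D11 in EPZ4777, 1 without A4 in EPZ4777), from 0 to 3 for drug in cells labelled shSirt1 (3 without A5 in DMSO), from 0 to 6 between labels in EPZ4777 and from 0 to 5 between labels in DMSO. For drug in cells labelled shSirt1, where 1 was called, 0 were with the mean of probe sets or the 4 arrays alone, and 2 with the code as a replicate block or an adjusted p under 0.1. With the code as a random block, 4 members were called between labels in EPZ4777 and 0 in DMSO, as without it. For drug in cells labelled shSirt1, the median difference of -0.18 turned to 0.038 with the mean of probe sets, was -1.09 without dim genes and ranged from -0.56 to -0.18 with 1 array left out. In shLUC cells the median of 1.47 became 0.89 without dim genes and 1.18 over single probe sets. Between labels in EPZ4777 the median of -3.18 became -2.42 both with the mean of probe sets and over single probe sets. In DMSO the median of -1.01 became -1.45 without dim genes and -0.67 over single probe sets, and ranged from -1.17 to -0.65 with 1 array left out. Another pair of settings were added after seeing the data. Without both A1 arrays the members called for drug in cells labelled shSirt1 were 0 and the medians 0.14 there and -0.72 between labels in DMSO. Without both A5 arrays the members called were 2 for drug in cells labelled shSirt1, 7 between labels in EPZ4777 and 6 between labels in DMSO. The cause of these shifts was not tested, beyond fewer genes or arrays entering. Over all genes the calls ranged from 0 to 1958 for drug in shLUC cells (724 in the fit reported), 0 to 404 for drug in cells labelled shSirt1 (72), 0 to 245 between labels in EPZ4777 (56) and 0 to 203 in DMSO (0). Low signal limits Cd36 and Fstl1, which lie under the lower quartile on 7 and 4 arrays. It also limits Mrc1, under it on 1 array (A1 in DMSO), and Pla2g7, which comes close to it in DMSO.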
